A study of Mus musculus with 12 samples.

Results

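ChIP-seq, the sequencing of DNA recovered with antibodies against chromatin, was examined for 2 kinds of histone H3 acetylation in fibro-adipogenic progenitors (FAPs), the mesenchymal cells that lie between muscle fibres, taken from young mdx mice treated with trichostatin A (TSA). The question was which genes and regions carried both acetylation of lysine 27 (H3K27ac) and acetylation of lysines 9 and 14 (H3K9/14ac), and which carried 1 of them. Members were all complete peaks of the 2 deposited young TSA lists in the stretch that both lists cover, namely chromosomes 1 to 3 and chromosome 4 up to position 155236417 of the mouse genome. There were 14654 such peaks, 8226 of H3K27ac and 6428 of H3K9/14ac, of 77135 complete peaks read from the 8 lists of the series. The list headers count 32874 H3K27ac and 26122 H3K9/14ac peaks over the whole genome.

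Per the labels, the mice were of the C57Bl6 background and carried the mdx allele, which removes dystrophin and is a model of Duchenne muscular dystrophy. The young TSA mice were 1.5 months old and received TSA at 0.6 mg/kg/day into the peritoneum every day for 15 days. The 3 other conditions were young mice given saline vehicle, and old mice (12 months) given TSA or saline vehicle. All groups share the mdx allele, so no group has healthy muscle. The series has 12 samples, of which 8 are immunoprecipitated and 4 are inputs, with a single library (n = 1) per mark in every condition, and the inputs were not analysed here. The labels say that cells were sorted by flow cytometry, and they give neither the sorting gate nor the number of mice behind a library. With 1 library per mark, no test between marks is possible. Shares are given with exact (Clopper-Pearson) 95% binomial intervals, which cover counting error only.

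Acetylation removes the positive charge of lysine side chains on histone tails and is read by bromodomain proteins. H3K27ac is placed mainly by the enzymes p300 and CBP and marks active promoters and active enhancers, whereas H3K9 and H3K14 acetylation is placed mainly by the GCN5 and PCAF enzymes and others and is strongest at active promoters. TSA inhibits zinc-dependent histone deacetylases, the enzymes that remove these marks. FAPs support muscle repair and are the source of fibrous and fatty tissue in dystrophic muscle.

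The promoters of 6 genes show the sequence behind the 3 states described below. For each state they are the 2 genes with the longest marked length whose promoter's annotated start lay in a peak of each mark of that state. Each sequence runs 5′ to 3′ from 250 bases before to 50 bases after a start annotated by RefSeq (build GRCm38.p6), with every CG dinucleotide in capitals.
The first pair had H3K27ac and no H3K9/14ac. S100a4 (chr3:90603520-90603819, plus strand) encodes a calcium-binding protein of fibroblasts, and Musk (chr4:58285712-58286011, plus strand) encodes a receptor tyrosine kinase of the neuromuscular junction.
S100a4: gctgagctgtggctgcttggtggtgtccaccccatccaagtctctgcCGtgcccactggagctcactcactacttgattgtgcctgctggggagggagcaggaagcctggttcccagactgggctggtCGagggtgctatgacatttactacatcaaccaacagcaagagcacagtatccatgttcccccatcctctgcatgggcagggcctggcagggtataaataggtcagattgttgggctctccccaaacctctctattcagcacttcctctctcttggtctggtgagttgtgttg
Musk: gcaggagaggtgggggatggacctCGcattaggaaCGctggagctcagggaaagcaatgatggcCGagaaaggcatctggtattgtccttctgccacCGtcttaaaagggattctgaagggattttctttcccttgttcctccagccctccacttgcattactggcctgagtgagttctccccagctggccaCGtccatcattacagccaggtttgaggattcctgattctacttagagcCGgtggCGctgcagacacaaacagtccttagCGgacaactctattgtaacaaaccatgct
The second pair had H3K9/14ac and no H3K27ac. Mob3b (chr4:35157435-35157734, minus strand) encodes a MOB family protein, and Ptpru (chr4:131838229-131838528, minus strand) encodes a receptor-type tyrosine phosphatase.
Mob3b: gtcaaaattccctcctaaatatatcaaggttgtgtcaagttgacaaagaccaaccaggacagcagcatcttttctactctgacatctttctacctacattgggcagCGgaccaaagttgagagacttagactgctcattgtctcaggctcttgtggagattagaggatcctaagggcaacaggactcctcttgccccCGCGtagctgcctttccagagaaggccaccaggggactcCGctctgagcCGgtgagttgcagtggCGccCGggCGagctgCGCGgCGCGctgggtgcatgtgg
Ptpru: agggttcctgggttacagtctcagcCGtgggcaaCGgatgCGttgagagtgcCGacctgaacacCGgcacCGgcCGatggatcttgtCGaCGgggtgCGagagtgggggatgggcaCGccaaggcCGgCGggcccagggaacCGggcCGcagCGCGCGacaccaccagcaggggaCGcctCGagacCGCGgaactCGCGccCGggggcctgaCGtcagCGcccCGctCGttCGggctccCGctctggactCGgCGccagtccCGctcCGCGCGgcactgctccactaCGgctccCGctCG
The third pair had both marks. Hspg2 (chr4:137468553-137468852, plus strand) encodes perlecan, a basement membrane proteoglycan, and Itpkb (chr1:180330226-180330525, plus strand) encodes a kinase of inositol trisphosphate.
Hspg2: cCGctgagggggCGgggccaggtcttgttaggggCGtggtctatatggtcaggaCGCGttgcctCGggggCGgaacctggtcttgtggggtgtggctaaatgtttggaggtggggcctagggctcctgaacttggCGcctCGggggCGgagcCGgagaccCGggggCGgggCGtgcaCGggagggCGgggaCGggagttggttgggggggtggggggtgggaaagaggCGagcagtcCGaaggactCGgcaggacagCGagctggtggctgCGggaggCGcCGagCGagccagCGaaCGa
Itpkb: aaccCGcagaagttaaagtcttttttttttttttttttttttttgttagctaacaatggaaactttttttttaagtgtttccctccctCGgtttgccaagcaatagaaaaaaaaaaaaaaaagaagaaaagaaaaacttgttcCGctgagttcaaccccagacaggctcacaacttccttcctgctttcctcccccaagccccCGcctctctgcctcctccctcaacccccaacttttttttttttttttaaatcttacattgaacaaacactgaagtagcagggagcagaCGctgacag
The S100a4 promoter held 2 CG dinucleotides and the Musk promoter 8, against 12 in Mob3b, 40 in Ptpru, 27 in Hspg2 and 5 in Itpkb. The 6 sequences therefore cover CpG-poor and CpG-rich promoters, and the Itpkb promoter shows that a start with both marks can be CpG-poor. At S100a4 the H3K27ac peak (chr3:90603187-90606390) spanned the whole promoter and held 606 tags. At Ptpru the H3K9/14ac peak (chr4:131836596-131838542) held 322 tags, and at Mob3b the peak (chr4:35156018-35157545) held 256. At Itpkb the H3K27ac peak held 2385 tags and the H3K9/14ac peak 1563. At Hspg2 the values were 1213 H3K27ac tags and 690 H3K9/14ac tags.

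A tag is an aligned read counted once per peak, and the authors deposited the tag count of each peak without normalization. The peaks of the stretch held 1912092 H3K27ac tags and 1221741 H3K9/14ac tags, and the size of the whole libraries is not stated. The headers name a filtered subset of each library's peaks as the starting list, and the filter is not given. The headers of the H3K9/14ac lists name the tag directories as AcH3 without a residue, so the residues are taken from the labels. In the stretch that all 8 lists cover (chromosome 1 and chromosome 2 up to position 167064301), 73.7% of the young TSA H3K9/14ac peaks overlapped a peak of the old vehicle list, 70.3% the old TSA list and 65.0% the young vehicle list, which held 3235, 2475 and 2711 peaks. The young TSA H3K9/14ac list thus shared least with the list of the same age. Of the young TSA H3K27ac peaks, 93.5% overlapped the young vehicle list, 89.2% the old TSA list and 72.0% the old vehicle list. Of 13 FAP marker genes, 6 lie in the stretch (Prrx1, Dpt, Cd34, Gsn, Twist2 and Dpp4). All 6 carried both marks in the gene or within 1000 bp, a state found in 52.1% of all 5252 genes of the stretch. The 6 markers held a summed 36322 bp of H3K27ac and 12380 bp of H3K9/14ac. Pax7 of muscle stem cells, Ttn and Neb of muscle fibres, Ptprc and C1qa of blood cells and Fmod of tenocytes were at 0 for both marks. All 4 endothelial markers in the stretch (Sox17, Sox18, Egfl7 and Tie1) also had both marks, against the same 52.1% of all genes. They held a summed 23567 bp of H3K27ac and 17963 bp of H3K9/14ac. The 3 lymphocyte markers in the stretch had both marks too, and of these Cd247 reached 10442 bp and 3144 bp. The part of endothelial and blood cells in the results was not tested, and an abundance of cells cannot be told apart from the mark per cell.

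H3K27ac was spread more widely than H3K9/14ac, and the marks met mostly at gene ends. H3K27ac peaks covered 8.27 Mb and H3K9/14ac peaks 5.36 Mb, and 3.89 Mb carried both, which is 47.0% of the H3K27ac length and 72.5% of the H3K9/14ac length. An H3K9/14ac peak overlapped 51.3% of H3K27ac peaks (95% interval 50.2 to 52.3), and an H3K27ac peak overlapped 69.3% of H3K9/14ac peaks (68.2 to 70.4). A gene end was defined as 1000 bp either side of either annotated end of a protein-coding gene. There, 90.3% of 2956 H3K27ac peaks overlapped H3K9/14ac, compared with 32.5% of 3456 H3K27ac peaks inside genes and 23.4% of 1814 outside genes. For H3K9/14ac peaks the dependence on place was smaller, with 76.3% of 3424 overlapped at gene ends, 63.4% of 2165 inside genes and 56.3% of 839 outside genes. The shares of H3K27ac peaks overlapped were close on every chromosome, between 48.3% on chromosome 3 and 53.9% on chromosome 2, and those of H3K9/14ac peaks lay between 65.6% on chromosome 4 and 73.0% on chromosome 3.

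Overlapping or touching peaks of both lists were merged into 9933 regions. Both marks were present in 3951 regions, H3K27ac without H3K9/14ac in 4010, and H3K9/14ac without H3K27ac in 1972. Regions with both marks lay at gene ends in 63.8% (62.3 to 65.3), inside genes in 1028 of 3951 and outside genes in 10.2%. Regions with H3K27ac alone were at gene ends in 7.13% (6.35 to 7.97), inside genes in 58.2% and outside in 34.7%. Regions with H3K9/14ac alone stood between these, with 41.2% at gene ends (39.0 to 43.4), 40.2% inside genes and 18.6% outside. The intervals of the 3 classes do not overlap at any of the 3 places. A gene's 5′ end was known for 4372 of the 5252 genes. Within 1000 bp of such a start lay 51.9% of regions with both marks, 4.16% with H3K27ac alone and 31.4% with H3K9/14ac alone, whereas the 3′ end was reached by 5.21%, 2.02% and 4.56%. A minority of solitary regions lay close to the other mark. Of those with H3K27ac alone, 16.7% had an H3K9/14ac peak within 1000 bp, and 22.3% of those with H3K9/14ac alone had an H3K27ac peak within that distance. Within 10000 bp the shares were 44.4% and 44.8%.

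**Figure D1:**
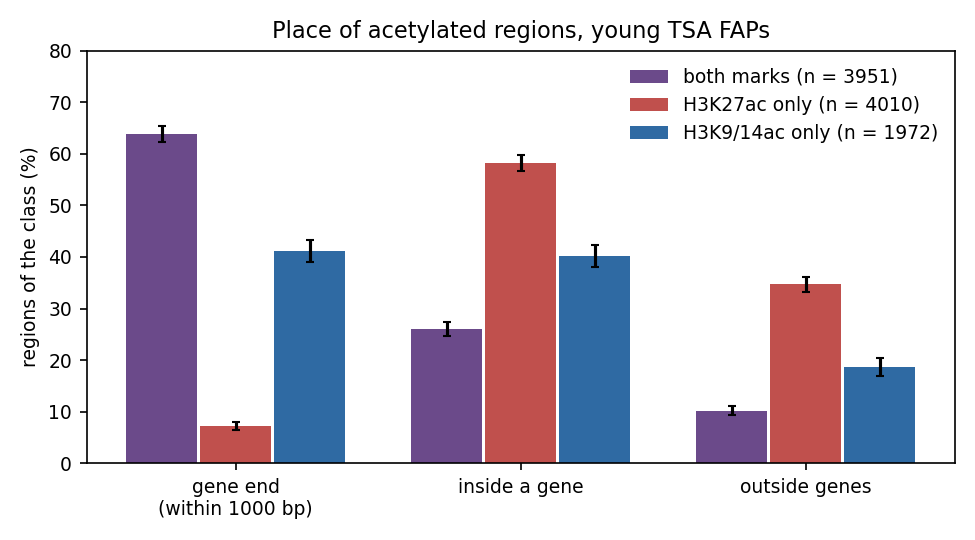
Share of regions of each class (both marks, H3K27ac only, H3K9/14ac only) that lay at gene ends, inside genes or outside genes, in percent. Bars are shares and whiskers exact 95% binomial intervals. Regions with both marks reached 63.8% at gene ends, against 7.13% of regions with H3K27ac alone and 41.2% of those with H3K9/14ac alone.

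Regions with 1 mark were narrow and held few tags. Their median width was 566 bp for H3K27ac alone and 410.5 bp for H3K9/14ac alone. In regions with both marks the median length was 1156 bp of H3K27ac and 1002 bp of H3K9/14ac. The merged region had a median of 1306 bp, which joins peaks of both lists and is the wider by construction. H3K27ac tags had a median of 88 (quartiles 59 and 147) in regions with H3K27ac alone and 263 (136 and 494) in regions with both marks. H3K9/14ac tags had a median of 56 (39 and 89.3) in regions with H3K9/14ac alone and 229 (98 and 384) in regions with both. These tags are summed over the peaks of a region, which can hold several peaks of a mark. Taken peak by peak, those overlapped by the other mark had medians of 239 tags for H3K27ac and 191 for H3K9/14ac. Tags per 1000 bp covered showed the same order, with medians of 164 for H3K27ac alone and 145 for H3K9/14ac alone, against 222 H3K27ac and 212 H3K9/14ac tags in regions with both. Regions with both marks held 74.7% of all H3K27ac tags and 87.9% of all H3K9/14ac tags of the stretch. Exceptions existed: 305 regions with H3K27ac alone (7.61%) and 50 with H3K9/14ac alone (2.54%) held at least the median tags of regions with both marks. The widths and tags of peaks thus move with the classes. How far a missing partner mark is a peak below the authors' calling threshold, or one removed by their filter, was not tested.

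Ranking each list by tags and dividing it into 5 equal parts allowed gene ends and other places to be compared among peaks of like tag count. Away from gene ends, 11.9% of H3K27ac peaks in the lowest part (22 to 66 tags) overlapped H3K9/14ac, and 75.7% in the highest part (345 or more tags). At gene ends the same parts gave 67.4% and 98.8%. In each of the 5 parts the share at gene ends exceeded the share elsewhere, and the intervals did not overlap. H3K9/14ac peaks behaved otherwise. Their lowest part overlapped H3K27ac in 35.3% at gene ends and 39.4% elsewhere, the middle part in 57.2% and 72.2%, and the highest part in 99.4% and 98.3%. In parts 2 and 3, H3K9/14ac peaks away from gene ends overlapped H3K27ac more often than those at gene ends, with intervals that did not overlap (55.8 to 62.4 against 41.2 to 51.1 in part 2).

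**Figure D2:**
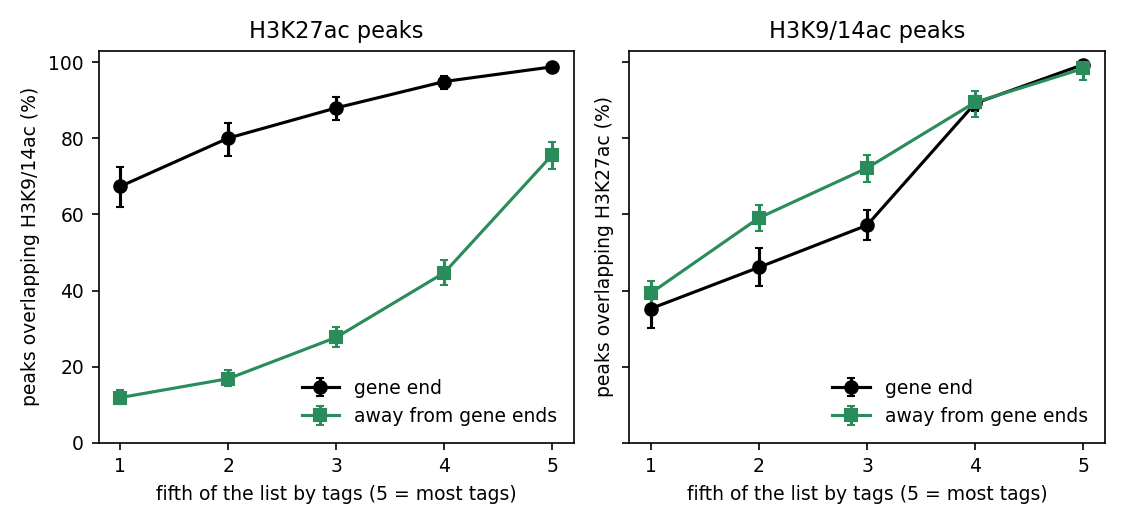
Share of H3K27ac peaks overlapping H3K9/14ac (left) and of H3K9/14ac peaks overlapping H3K27ac (right), in percent, by the part of each list ranked by tags, where 5 has the most tags. Points are shares at gene ends (circles) and away from them (squares), and whiskers are exact 95% binomial intervals. For H3K27ac the lines stay apart (75.7% and 98.8% in part 5), whereas for H3K9/14ac they meet in parts 4 and 5.

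Within regions that had both marks, 84.4% were built of 1 peak of each, 9.47% of 1 H3K27ac peak with several H3K9/14ac peaks, and 5.09% of several H3K27ac peaks with 1 H3K9/14ac peak. Of the 3334 regions with 1 peak of each, the H3K9/14ac peak lay inside the H3K27ac peak in 39.5%, the H3K27ac peak lay inside the H3K9/14ac peak in 22.2%, and the peaks were staggered in 38.3%. H3K27ac covered more of the region than H3K9/14ac in 64.2% of all regions with both marks (62.6 to 65.7). That share was 54.7% at gene ends (52.8 to 56.7) and 80.8% away from them (78.6 to 82.8). The widest region with both marks (chr1:90834312-90844509) lay at a gene end of Col6a3, a chain of collagen VI, with 2330 H3K27ac and 607 H3K9/14ac tags. The next lay inside Tns1 (chr1:74025873-74035847), which encodes the focal adhesion protein tensin 1, with 2059 and 675 tags. A region at an end of Mef2d (chr3:88137957-88147025), a MADS-box transcription factor of muscle and other cells, held 3475 and 1651 tags, and the other 2 lay in Hspg2. In all 5 of these regions H3K27ac covered the greater length.

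The widest region with H3K27ac alone lay inside Rapgef1 (chr2:29645545-29650309), a guanine nucleotide exchange factor, and held 793 tags. Others lay inside Tshz2 (chr2:169749319-169753381, 727 tags), Niban1 (chr1:151684000-151687989, 904 tags) and Ddr2 (chr1:170055705-170059628, 840 tags), the last a collagen receptor kinase of mesenchymal cells, and 1 lay 83443 bp from the nearest gene, Plcb1 (chr2:135558701-135562785, 839 tags). None of these 5 was at a gene end. The widest regions with H3K9/14ac alone were mostly at gene ends: those of Lrp4 (chr2:91457499-91459611, 387 tags), Fjx1 (chr2:102449748-102451840, 378 tags), Frzb (chr2:80446591-80448649, 310 tags) and Ptpru. Frzb encodes a secreted Wnt antagonist. The widest of them lay inside Fam78a (chr2:32082702-32085028, 355 tags).

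Tag counts of the marks in the same region were compared as the log2 ratio of H3K27ac over H3K9/14ac tags. Its median over regions with both marks was 0.33, and values are given below relative to it, as relative tags on the log2 scale, because the library totals are unknown. A positive value means more H3K27ac, relative to H3K9/14ac, than in the median region. Relative tags had a median of -0.25 at gene ends, 0.55 inside genes and 0.72 outside genes. They exceeded 1 in 6.35% of regions at gene ends and 36.5% away from them, and were below -1 in 19.2% at gene ends and 6.22% away. Across the 3951 regions the tag counts had a Spearman correlation of 0.66, with 0.75 over 2521 gene ends and 0.54 over 1430 other places, as a description. Regions share the same pair of libraries, and wide regions hold more tags of either mark.

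**Figure D3:**
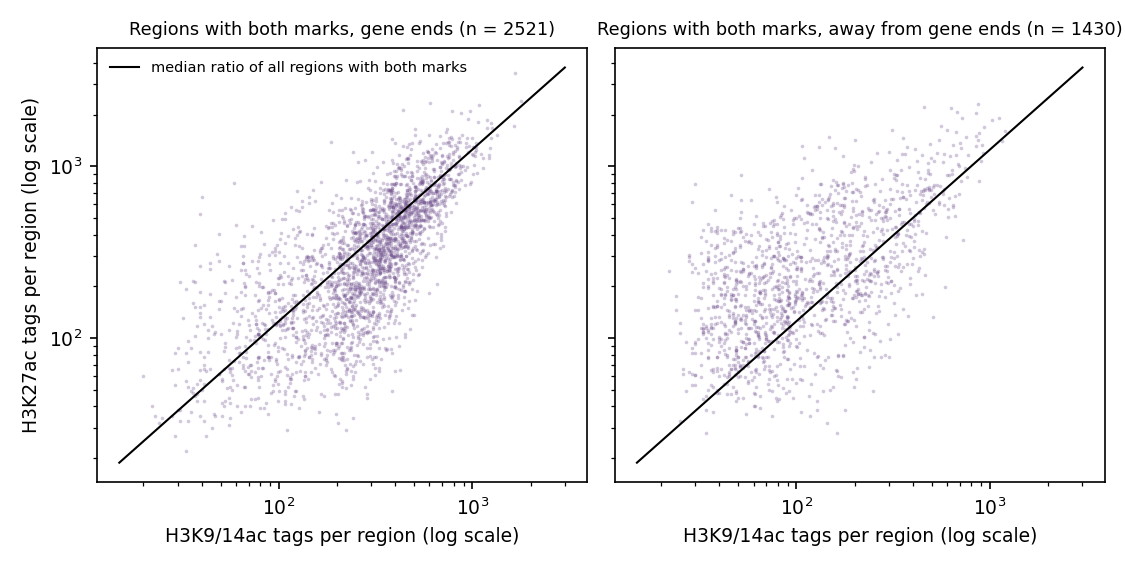
H3K27ac tags (vertical, log scale) against H3K9/14ac tags (horizontal, log scale) for each region with both marks at gene ends (left, n = 2521) and away from them (right, n = 1430). Each point is a region and the line marks the median ratio of all 3951 regions. Away from gene ends most points lie above the line (median relative tags 0.55 inside and 0.72 outside genes), and at gene ends the median is -0.25.

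Around annotated starts the marks had a similar shape, with H3K27ac reaching further at low frequency. In 1998 genes with both marks within 1000 bp of the start, H3K27ac reached a median of 523 bp upstream and 940.5 bp downstream of it. H3K9/14ac reached 416 bp upstream and 983.5 bp downstream. The downstream side was the longer in 77.6% of these genes for H3K27ac and 82.1% for H3K9/14ac. At 500 bp downstream, H3K27ac covered 83.8% of these genes and H3K9/14ac 87.5%. At 2000 bp downstream the shares were 13.8% and 10.6%, and at 5000 bp 4.50% and 2.10%. Over all 4372 genes with a known start, H3K27ac covered the start itself in 34.9% and H3K9/14ac in 42.3%, with both in 32.5%.

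Promoter sequence differed between the states. The ratio of observed to expected CG dinucleotides, from the base composition of the 300 bases, had a median of 0.79 in 2080 promoters with both marks within 1000 bp, 0.26 in 35 with H3K27ac alone and 0.70 in 439 with H3K9/14ac alone, against 0.22 in 1818 with neither mark. Here the start is that of the promoter table's nearest entry for each gene, which need not be the outer end of the gene, so the counts differ from those at gene starts (1998 with both, 50 with H3K27ac alone and 422 with H3K9/14ac alone). Promoters with H3K27ac alone thus had a median near that of unmarked promoters, and those with H3K9/14ac alone had one near that of promoters with both. The letters GGGCGG, a GC box, were found on either strand in 69.3% of promoters with both marks, 17.1% with H3K27ac alone (6.56 to 33.6), 69.0% with H3K9/14ac alone and 18.9% with neither, against 47.9% of all 4372. CCGGAAG, the core of ETS family motifs, was found in 20.2% with both marks, in 0 of 35 with H3K27ac alone (upper bound 10.003%) and in 7.52% with H3K9/14ac alone (5.23 to 10.4), against 2.86% with neither and 11.6% of all. The TATA box letters TATAAA were found in 5.91% with both, 11.4% with H3K27ac alone (3.20 to 26.7) and 6.38% with H3K9/14ac alone, against 23.0% with neither and 13.1% of all. TGACGT, the core of cyclic AMP response elements, was found in 11.7%, 5.71% (0.70 to 19.2) and 6.61% of these classes in the same order, against 3.52% with neither and 7.75% of all. CCAAT was found in 38.3%, 22.9% and 33.5%, against 37.7% with neither and 37.4% of all, so its intervals overlapped between the classes. TGANTCA, the AP-1 motif, was found in 3.70%, 14.3% (4.81 to 30.3, 5 of 35 promoters) and 5.01%, against 12.2% and 7.46%. The E-box CACGTG was found in 9.81%, 5.71% (0.70 to 19.2, 2 of 35) and 10.7%, against 4.84% and 7.80%. All motifs were searched on both strands of the 300 bases, matches of different motifs could overlap, and a match is a description of letters and not of binding. Within genes that had both marks, the CG ratio of the promoter had a Spearman correlation of -0.07 with the gene's relative tags over 2311 genes. Of the sequences printed above, S100a4 held TATAAA, Mob3b held CCAAT, Ptpru held TGACGT and Hspg2 held GGGCGG, and the other 2 held none of the 7.

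**Figure D4:**
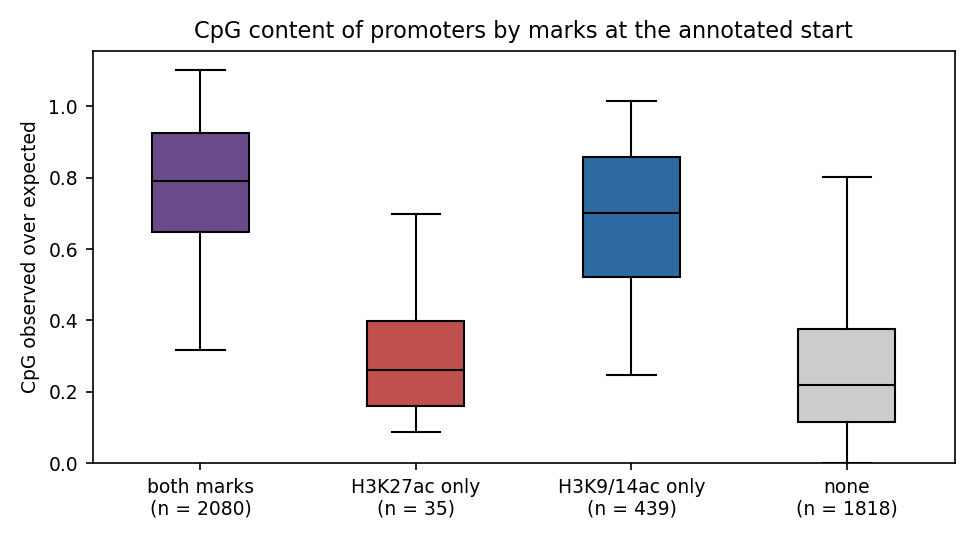
Observed over expected CG dinucleotides in promoters of 300 bases, by the marks within 1000 bp of the annotated start. Boxes span the quartiles with the median as a line, and whiskers run from the 5th to the 95th percentile. The medians are 0.79 with both marks, 0.26 with H3K27ac alone, 0.70 with H3K9/14ac alone and 0.22 with neither.

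Of 5252 protein-coding genes in the stretch, 2434 carried both marks at a gene end (46.3%), 81 carried H3K27ac alone (1.54%), 518 carried H3K9/14ac alone (9.86%) and 2219 carried neither. In the window of the gene and 1000 bp either side, the counts were 2734 with both (52.1%), 80 with H3K27ac alone (1.52%), 536 with H3K9/14ac alone (10.2%) and 1902 with neither. Genes with H3K27ac alone were therefore few beside the 4010 regions with H3K27ac alone. Among the genes whose window held H3K27ac and no H3K9/14ac, Aknad1 had the longest marked length (6492 bp in 7 peaks) and Arhgap15, a GTPase-activating protein for Rac, came next (5214 bp in 9 peaks). S100a4 followed with 3611 bp and 680 tags, Atp8b4, a member of the phospholipid flippase family, with 3551 bp, and Musk with 3094 bp. Tnfaip6, which encodes a secreted hyaluronan-binding protein induced in inflammation, had 2643 bp and 481 tags. Fndc7, Cldn19 (a tight junction claudin), Fmo2 (a flavin monooxygenase) and Itgb6 (an integrin subunit) had between 2235 and 2536 bp.

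Among the genes with H3K9/14ac and no H3K27ac in the window, Gata3, a zinc finger transcription factor of T cells and of other lineages, had the longest length (3078 bp in 4 peaks). Col8a2, a chain of collagen VIII, had 2905 bp in 5 peaks and Mapk8ip1, a scaffold of JNK signalling, had 2652 bp. Lrp4, the agrin receptor that partners with Musk at the neuromuscular junction, had 2113 bp and 387 tags, so the genes of these partners each carried 1 mark, and not the same. Bmp2, a ligand of the bone morphogenetic protein family, had 2073 bp, and Mllt3, a reader of acylated histone lysines, had 2038 bp. The remaining ones, Mroh2a, Fjx1, Mob3b and Espn (an actin-bundling protein), had between 1962 and 2293 bp.

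Among genes with the longest stretch under both marks, Hspg2 had 34984 bp of H3K27ac and 22018 bp of H3K9/14ac, with 21755 bp under both. Tns1 had 44108 and 21954 bp with 17416 bp shared, and Nfia, a nuclear factor I transcription factor, had 51350 and 14220 bp with 13149 bp shared. Relative tags of these 3 genes were 1.04 ± 0.03, 1.12 ± 0.03 and 1.66 ± 0.03 (± the standard error from tag counting alone, here and below). Itpkb, Niban2, Ski (a repressor of TGF-beta signalling), Arhgef2, Egfl7, Lmna (lamin A and C) and Soga1 followed, with 8618 to 11771 bp under both marks and relative tags between 0.30 and 1.14. At the annotated start alone Hspg2 had relative tags of 0.24 and Itpkb 0.15, lower than over the whole window, whereas Egfl7 had 1.03 and Lmna 1.75, higher than their window values of 0.30 and 1.09.

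The balance of the marks ranged widely between genes. Over the 2734 genes with both marks in the window the median of relative tags was -0.14, with 10.5% above 1 and 17.4% below -1. Among 2664 genes with at least 50 tags of each mark, high values were found for Tmigd3 (3.78 ± 0.21, 893 H3K27ac and 52 H3K9/14ac tags), Adgrl4 (3.52 ± 0.19), Tm4sf1 (3.45 ± 0.12) and Tek (3.17 ± 0.13). Adgrl4, an adhesion G protein-coupled receptor, and Tek, the angiopoietin receptor, are known from endothelium. The lowest were Inafm2 (-3.17 ± 0.19, 64 H3K27ac and 460 H3K9/14ac tags), Efhd2 (-3.11 ± 0.16), Gpr63 (-3.03 ± 0.21), Nacc2 (-2.75 ± 0.18) and Strbp (-2.75 ± 0.19). In each of these 5 a single narrow H3K27ac peak of 325 to 592 bp stood beside 2 to 4 H3K9/14ac peaks.

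Gene lists were described by their counts and medians beside those of all genes, and membership of a list was not tested. Of all 5252 genes, 52.1% carried both marks in the window, 1.52% H3K27ac alone and 10.2% H3K9/14ac alone, and of those with both marks 10.5% exceeded 1 in relative tags and 17.4% were below -1. Of 14 FAP identity genes in the stretch, 13 carried both marks in the window and Tnfaip6 carried H3K27ac alone. Their median of relative tags was 1.42 against -0.14 for all genes, and 9 of 13 exceeded 1. Cd34, a surface sialomucin of progenitors, had 2505 H3K27ac and 437 H3K9/14ac tags (2.19 ± 0.07), and Col15a1, the basement membrane collagen XV, had 2841 and 535 (2.08 ± 0.07). Fap, the fibroblast activation protease, stood at 2.24 ± 0.13, Vcam1, an adhesion molecule, at 2.50 ± 0.16, and Prrx1, a mesenchymal homeobox factor, at 1.42 ± 0.07. Lower values were found for Twist2, a basic helix-loop-helix repressor (-0.89 ± 0.12), and for Ptx3, a pentraxin (-0.96 ± 0.16). At the annotated starts of the 7 of these genes with both marks there, the median was -0.18, against -0.30 for the starts of all 1998 genes. The start values ranged widely, with 1.74 for Dpt, 0.82 for Cd34, 0.55 for Col15a1, -0.18 for Fbn1, -0.68 for Ptx3, -1.31 for Twist2 and -1.55 for Gsn, the actin-severing protein gelsolin. Over the window Dpt had 1.76 and Gsn 1.42, so the start matched the window for Dpt, a matrix protein, and not for Gsn.

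The fibrosis and matrix list had 43 members in the stretch, of which 30 carried both marks in the window, 2 H3K27ac alone, 5 H3K9/14ac alone and 6 neither. The count with H3K9/14ac alone is near the 10.2% of all genes. The median of relative tags was 0.63, with 12 of 30 above 1, against 10.5% of all genes, and none below -1. Col3a1, a chain of fibrillar collagen III, had 1515 H3K27ac and 49 H3K9/14ac tags (4.63 ± 0.21), and 2.71 at its start alone. Postn, the matricellular protein periostin, had 333 and 35 tags (2.92 ± 0.26), Lamc1 5258 and 1024 (2.03 ± 0.05), and Col6a3 2412 and 607 (1.67 ± 0.07). Fn1, fibronectin, was nearer the median region with 942 and 537 tags (0.48 ± 0.08). The members with H3K9/14ac alone were Col8a2, Tnc, Col9a2, Mmp16 and Col11a1, and those with H3K27ac alone were Ecm1 and Lamb3. Collagen genes of the stretch thus ranged from Col3a1 with nearly all tags in H3K27ac to Col8a2 with 384 H3K9/14ac tags and no H3K27ac peak.

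Of 20 endothelial genes, 15 carried both marks, against 52.1% of all genes. Prox1, the lymphatic homeobox factor, carried H3K9/14ac alone, a state of 10.2% of all genes, and 4 genes carried neither mark. The median of the list was 0.70 over the window and 1.28 at the annotated start (8 genes), so the excess of H3K27ac was at the starts as well. Of the 15 genes with both marks 6 exceeded 1, against 10.5% of all genes. Emcn, the sialomucin endomucin, stood at 3.03 ± 0.24 with 400 H3K27ac and 39 H3K9/14ac tags, and Eng, a TGF-beta co-receptor, at 1.24 ± 0.05. Of 24 interferon response genes, 15 carried both marks, 2 H3K27ac alone, 3 H3K9/14ac alone and 4 neither. Among all genes these shares were 52.1%, 1.52%, 10.2% and 36.2%. The median of the interferon list was 0.95 over the window and 1.23 at the starts (12 genes). Of its 15 genes with both marks 7 exceeded 1 and 1 was below -1, against 10.5% and 17.4% of all genes. The guanylate-binding proteins Gbp2 (2.14 ± 0.15), Gbp5 (2.04 ± 0.14) and Gbp3 (1.89 ± 0.13) and the Ifi200 family members Ifi203, Ifi205 and Ifi207 (1.93 to 1.96) were all above 1. Ifi204 and Ifi211 had H3K27ac alone. These families are clusters of similar genes, so reads may be shared between copies.

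Core histone genes had a median of 0.90, and 5 of 10 exceeded 1, among them H2ac18 (1.50 ± 0.16) and H4c14 (1.27 ± 0.09). Their coding sequences are near-identical copies and their windows overlap, so the values are uncertain and not independent. Of 13 senescence and secretory genes, 5 carried both marks in the window, 4 carried H3K9/14ac alone and 4 neither. Among all genes these shares were 52.1%, 10.2% and 36.2%. Csf1, Tnfrsf1b, Cdkn2c, Igfbp5 and Serpine2 carried both marks. Bmp2, Il7 and the cell cycle inhibitors Cdkn2a and Cdkn2b carried H3K9/14ac alone, and Igfbp2, Il1a, Il1b and Mmp9 carried neither. Of NF-kB and inflammation genes, 14 of 25 carried both marks, near the 52.1% of all genes, with a median of 0.46 over the window and -0.18 at the starts. Cd44, the hyaluronan receptor, stood at 1.91 ± 0.08, Nfkb1 at 0.94 ± 0.06 and the ubiquitin ligase Traf6 at -2.04 ± 0.12. Ptgs1 and Traf1 had H3K9/14ac alone.

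Cell cycle genes leaned towards H3K9/14ac. Of 31 in the stretch, 22 carried both marks in the window and 9 H3K9/14ac alone, a state found in 10.2% of all genes. The 9 were Cdc25b, Nek2, Aspm, Cenpf, Bub1b, Nusap1, Bub1, Ccna1 and Mcm10. None had H3K27ac alone. The median of the 22 was -0.59, against -0.14 for all genes. At the annotated starts (14 genes) the difference was smaller, with -0.49 against -0.30. Ccne2, a G1/S cyclin, stood at -2.41 ± 0.19 and the ubiquitin-conjugating enzyme Ube2c at -1.94 ± 0.25. Mcm3, a subunit of the replicative helicase, was at -1.46 ± 0.17. Pcna (0.61 ± 0.11) and the kinetochore motor Cenpe (1.13 ± 0.16) were above the median region. Mitochondrial ribosomal protein genes all had both marks in the window (17 of 17), with a median of -0.73 and 7 below -1, the lowest being Mrps2 (-2.12 ± 0.18, 85 H3K27ac and 295 H3K9/14ac tags). Cytosolic ribosomal protein genes also had both marks in all 15 windows, with a median of -0.27 and none beyond 1 or -1. Housekeeping genes had both marks in 39 of 40 windows and a median of -0.10.

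**Figure D5:**
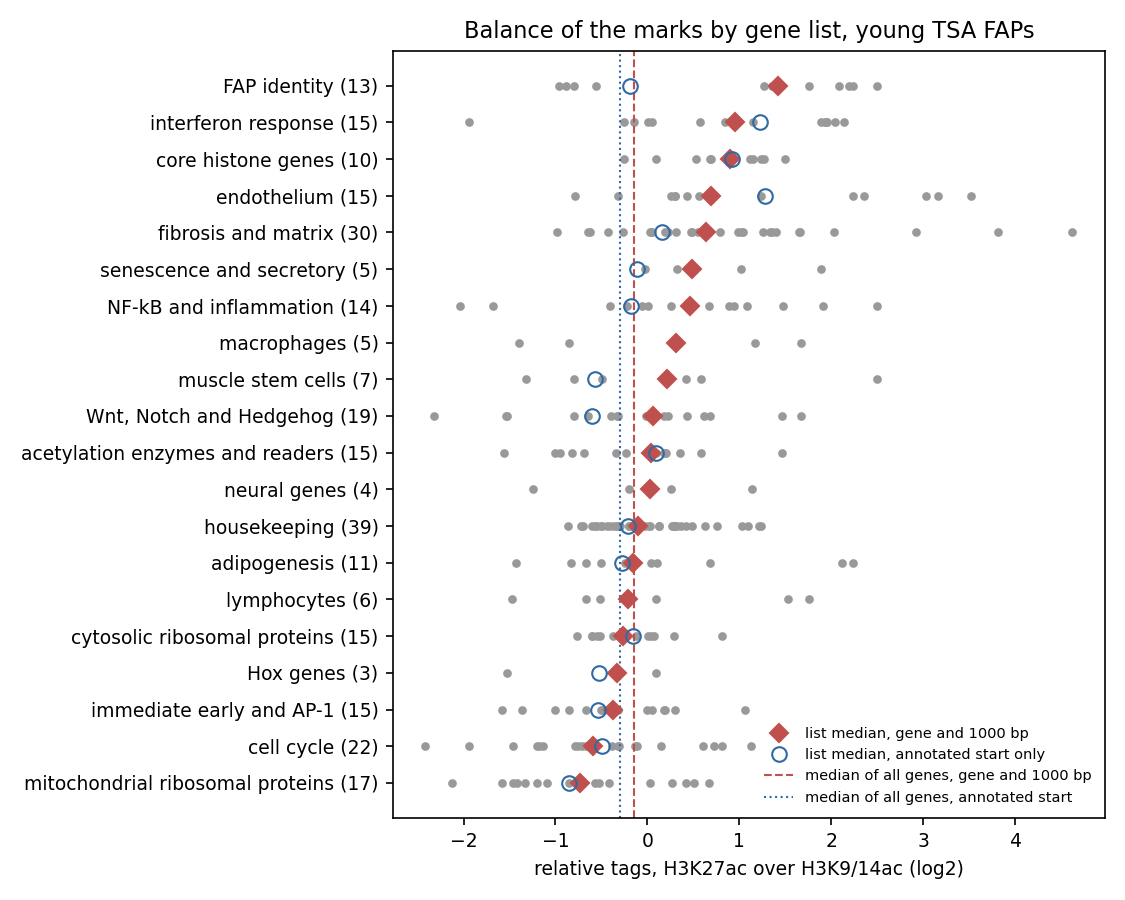
Relative tags (log2, H3K27ac over H3K9/14ac, 0 at the median region with both marks) by gene list. Grey points are genes with both marks in the gene and 1000 bp either side, diamonds their median (number of genes in brackets), open circles the median at annotated starts for lists with 3 or more such genes, and vertical lines the medians of all genes (-0.14 and -0.30). FAP identity genes reach a median of 1.42 over the window and -0.18 at the starts, while mitochondrial ribosomal protein genes have -0.73 over the window.

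Immediate early and AP-1 genes carried both marks in 15 of 17 cases with a median of -0.38. Jun stood at 0.00 ± 0.05 with 1966 H3K27ac and 1570 H3K9/14ac tags, Atf3 at -1.59 ± 0.11, Nr4a3 at -1.37 ± 0.08 and the survival factor Mcl1 at 1.06 ± 0.05. Adipogenesis genes had both marks in 11 of 16 windows and a median of -0.15. The fatty acid binding protein gene Fabp4 stood at 2.23 ± 0.13, its neighbour in the family Fabp5 had 262 H3K9/14ac tags and no H3K27ac peak, and Rxra, a nuclear receptor, had 2349 and 2085 tags (-0.15 ± 0.04). Genes of Wnt, Notch and Hedgehog signalling had both marks in 19 of 32 windows, near the 52.1% of all genes, with a median of 0.07. Notch1 and Notch2 stood at 0.68 ± 0.05 and 1.47 ± 0.07, while Hes6 was at -2.32 ± 0.19, and Frzb, Hes5, Sfrp2, Wnt2b and Ihh had H3K9/14ac alone. Genes of acetylation enzymes and readers had both marks in 15 of 17 windows with a median of 0.04. Among them Hdac1, a deacetylase that TSA inhibits, had 177 and 249 tags (-0.82 ± 0.14), Hdac4 736 and 458 (0.36 ± 0.09) and the coactivator Ncoa3 2411 and 699 (1.46 ± 0.06).

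Genes of other lineages differed between lists. Of all 5252 genes, 36.2% had neither mark in the window, 10.2% H3K9/14ac alone, 1.52% H3K27ac alone and 52.1% both. Of 41 neural genes, 22 had neither mark, 14 had H3K9/14ac alone, 1 had H3K27ac alone and 4 had both. Ntng1 (1648 bp, 215 tags), Ntng2 and the homeobox gene Lmx1b were the longest of the 14. Of 340 olfactory receptor genes, 338 had neither mark and Olfr1033 and Olfr432 had H3K27ac alone. Muscle fibre genes had neither mark in 16 of 21 windows, and Jph1, Tnni1, Myh7b and Jph2 had H3K9/14ac alone. Macrophage genes had neither mark in 18 of 25 windows, both in 5 and H3K9/14ac alone in 2, among them the myeloid factor Spi1 (166 tags). Among lymphocyte genes 6 of 18 had both marks, 2 (Il2ra and Bank1) had H3K27ac alone and 2 (Cr2 and Cd28) H3K9/14ac alone. Of 9 Hox genes in the stretch, Hoxd3, Hoxd8 and Hoxd9 had both marks and Hoxd1 had H3K9/14ac alone. In muscle stem cell genes both marks were present in 7 of 12 windows, near the 52.1% of all genes, and Myog had H3K27ac alone with 43 tags. Cornified envelope genes had H3K9/14ac in 1 of 39 windows, and the serpins and lipocalins not used in muscle in 2 of 47, with no H3K27ac in either list. Of the small lists, 2 of 7 pericyte and smooth muscle genes, 1 of 6 tenocyte genes and 2 of 6 Schwann cell genes had both marks.

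The 6 other libraries, which did not define the classes, held peaks at these regions to different extents. In the stretch of all 8 lists, 97.4% of regions with both marks in young TSA FAPs had an H3K27ac peak in young vehicle, 97.5% in old TSA and 85.6% in old vehicle. An H3K9/14ac peak was present at 82.2% of them in young vehicle, 84.8% in old TSA and 87.8% in old vehicle, and at gene ends these shares were between 95.5% and 97.0%. Of 2102 regions with H3K27ac alone, 90.2% had an H3K27ac peak in young vehicle, 81.0% in old TSA and 59.7% in old vehicle, and 84.7% (83.1 to 86.2) had an H3K9/14ac peak in none of the 3 other conditions. Of 999 regions with H3K9/14ac alone, 33.6% had an H3K9/14ac peak in young vehicle, 45.5% in old TSA and 50.1% in old vehicle, and 75.3% (72.5 to 77.9) had an H3K27ac peak in none of the 3. Away from gene ends, a peak of the same mark was present at 23.6%, 28.1% and 36.0% of regions with H3K9/14ac alone, in the same order of conditions, and at 90.1%, 80.6% and 59.1% of regions with H3K27ac alone. At gene ends the values were 47.2%, 69.0% and 69.0% for H3K9/14ac alone and 92.4%, 86.1% and 67.4% for H3K27ac alone. The intervals overlapped at gene ends in old vehicle (64.4 to 73.4 and 59.1 to 74.9), and H3K9/14ac alone was the lower in the other 5 comparisons. The H3K9/14ac lists are the shorter, at 2475 to 3235 peaks against 4210 to 5792 of H3K27ac, and the part of list length was not tested there.

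Overlap of the marks was set beside the same measure in the other conditions, with the longer list of each condition reduced to the length of the shorter by tags. In young TSA FAPs 59.6% of H3K27ac peaks (57.9 to 61.3) overlapped H3K9/14ac, against 62.7% in old TSA (60.8 to 64.6), 56.1% in young vehicle (54.2 to 57.9) and 57.7% in old vehicle (56.0 to 59.5). The converse shares of H3K9/14ac peaks were 65.1% in young TSA, against 67.1% in old TSA, 68.3% in young vehicle and 62.3% in old vehicle. Reduced by tags, the young TSA value lay inside the range of the other 3 conditions for both marks. Reduced by width, it was the highest of the 4 for both marks. For H3K27ac it was 59.2% (57.5 to 60.9), against 56.6% in old TSA (54.7 to 58.6), 51.8% in young vehicle (49.9 to 53.7) and 57.3% in old vehicle (55.6 to 59.0). For H3K9/14ac it was 64.8% (63.2 to 66.4), against 62.3% (60.4 to 64.3), 64.1% (62.3 to 66.0) and 61.9% (60.2 to 63.5). The rank of young TSA thus changed with the ranking, but its interval lay apart only from that of young vehicle, for H3K27ac by width. H3K9/14ac peaks were at gene ends in 53.7% in young TSA, against 65.0% in old TSA, 63.3% in young vehicle and 56.0% in old vehicle. These H3K9/14ac lists were not brought to a common length between conditions. They held 3336, 2475, 2711 and 3235 peaks in the same order, so the lowest share was that of the longest list. The part of list length in this order was not tested. Each condition is 1 library per mark, so these differences have no replicate check.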

How the data were processed

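ChIP-seq peak lists of H3K27ac and H3K9/14ac in young TSA FAPs were compared, with the 6 other libraries' lists as reference values. The submitters' processing notes name Bowtie 0.12.7, TopHat2 2.0.9, HTSeq 0.6.1p1, DESeq2, MACS2, HOMER and build GRCm38 and do not assign them to steps. Each list came from HOMER's tool for differential peaks, run on a filtered subset of 1 library's peaks, with the library's tags set against themselves, per the file headers. The authors deposited whole-number tag counts per peak, not normalized. The deposited fold ratio is 1 for every peak, the deposited p-value lies between 0.502 and 0.531, and the deposited peak score is 0, so none of these was used to rank peaks. Each list as used here ends inside an incomplete line, which was dropped, and a peak that crosses the border of the stretch was kept whole. No deposited column of values lacked a sample.

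Peaks that overlapped by 1 bp or touched were merged into regions. Gene coordinates came from a RefSeq table of GRCm38.p6 without strand, and strand came from a RefSeq promoter table that matched 4372 of 5252 genes. Tags of a peak crossing a window's border were counted in proportion to the overlap. Relative tags are the log2 ratio of H3K27ac over H3K9/14ac tags minus its median over regions with both marks. A Spearman correlation is given as a description. Python 3.11.15, numpy 2.4.6, pandas 2.3.3, scipy 1.17.1 and matplotlib 3.10.9 were used, and the region classes and ratios were checked on simulated data.

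The members and gene lists were chosen with earlier results of these data known. The 27 lists hold 983 named symbols, of which 19 were not matched, and families found by a name pattern. Named genes were the 10 with the longest H3K27ac or H3K9/14ac length and no other mark, the 10 with the longest shared length, the 5 highest and 5 lowest in relative tags with at least 50 tags of each mark, the 5 widest regions of each class, and list members with the longest marked length or with 1 mark. List members outside this rule (such as Col3a1, Gsn, Fap, Ccne2 and Traf6) were named after their values were seen. Some genes that meet the rule are not reported here. Alternatives covered gene end width, merging distance, the upper 50% of each list, equal list lengths, each chromosome left out, and starts alone.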

Additional observations from a re-analysis of the deposited data

How the results depend on the processing

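No paired analysis was possible because each mark has 1 library and no replicate number is shared. With the upper 50% of each list by width, 54.7% of H3K27ac and 71.5% of H3K9/14ac peaks overlapped the other mark, and by tags 57.6% and 74.7%. Lists of equal length gave 59.0% and 64.5% by tags, and 58.6% and 64.3% by width. Without chromosome 2 the H3K27ac share was 50.1%, and without chromosome 4 the H3K9/14ac share was 70.6%. In every one of these settings the H3K9/14ac share was the higher.

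Counts of regions moved with list length. The upper 50% by width left 2200 regions with both marks, 1863 with H3K27ac alone and 916 with H3K9/14ac alone, and by tags 2308, 1745 and 814. Regions with H3K27ac alone numbered 2359 when peaks up to 1000 bp apart were merged, and 2637 with lists of equal length by tags, against 3280 and 3645 regions with both marks in the same settings. Their small excess over regions with both marks in the lists as deposited (4010 against 3951) was thus turned round in all 4 settings. Genes with H3K27ac alone at a gene end numbered 50 at annotated starts and 129 in the upper 50% by tags, against 422 and 546 genes with H3K9/14ac alone in the same settings.

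The order of the classes at gene ends (both, then H3K9/14ac alone, then H3K27ac alone) held in the settings given here. With gene ends of 500 bp the shares were 59.5% (both), 5.09% (H3K27ac alone) and 34.6% (H3K9/14ac alone), with 2500 bp 69.0%, 13.4% and 53.1%, and at annotated starts 51.9%, 4.16% and 31.4%. Merging up to 1000 bp gave 66.4% for both and 3.26% for H3K27ac alone, and equal lengths by tags gave 43.4% for H3K9/14ac alone. The Spearman correlation of tags was 0.62 after merging, 0.63 with equal lengths by tags, 0.75 at gene ends and 0.54 elsewhere. The median H3K27ac width in regions with both marks was 2.04 times that in regions with H3K27ac alone, and 1.87 times after merging, 2.47 at gene ends and 1.57 with equal lengths. For H3K9/14ac the ratio was 2.44, and 2.20 at gene ends and 1.93 elsewhere.

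Counting list tags at annotated starts alone was chosen after seeing the data. The list median minus that of all genes then turned sign for adipogenesis (-0.013 over the window, 0.0243 at starts), muscle stem cells (0.35 and -0.28), Wnt, Notch and Hedgehog signalling (0.21 and -0.31) and cytosolic ribosomal proteins (-0.13 and 0.15). For FAP identity it was 1.56 and 0.11, for endothelium 0.84 and 1.58, and for cell cycle -0.446 and -0.19. The cause of these changes was not tested. The libraries' totals are unknown, and the stretch holds 8226 of 32874 and 6428 of 26122 peaks. A region without a peak may lie below the authors' threshold or have been removed by their filter, which is not given. The lack of a peak therefore does not show that the mark is absent.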
